A study of Mus musculus with 6 samples.

Results

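The 10 genes described here encode the classical AP-1 proteins (Fos, Fosb, Fosl1, Fosl2, Jun, Junb and Jund), the related stress-response factor Atf3, the zinc-finger factor Egr1 and the growth regulator Myc. They were picked by symbol from the 54232 genes of the raw count table, and all 10 were among the 14335 genes that passed the filter on low counts. C57BL6 mice, 1 month old, gave RNA of the tibialis anterior, the shin muscle, which is made mostly of fast fibres. Exon 51 of Dmd, the dystrophin gene, is deleted in the mice behind 3 libraries (D51 4, D51 5 and D51 6), and the other 3 libraries are wild type (WT 1, WT 2 and WT 3). The labels name no transgene, Cre driver or treatment in either group. The comparison asks how loss of the exon changes gene expression in whole muscle.

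AP-1 is a dimer of basic leucine zipper (bZIP) proteins, in which Fos proteins pair with Jun proteins while Jun proteins can also pair with each other. Most of these genes are immediate early genes: growth factors, stress, injury or, in muscle, contraction raise their transcription within minutes through kinases that act on factors already bound at their promoters, and their transcripts decay quickly. Egr1 and Myc respond to many of the same stimuli. Egr1 binds GC-rich sites, and Myc pairs with Max on E-box sites.

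Totals of reads assigned to genes were 18571038 to 20105817 in D51 and 15681945 to 21020353 in WT. Levels are given as CPM, the usual rate of counts per library total, corrected with edgeR's TMM factors, and levels of different genes are compared only per kilobase of gene length. Dmd itself had 47.7, 46.4 and 51.1 CPM in D51 4, 5 and 6, against 235, 249 and 266 CPM in WT 1, 2 and 3. It was called lower in D51 (log2 fold change -2.37, edgeR adjusted p = 2.77e-05). The labels name the deleted exon and give no level of the whole gene, and the cause of the lower level was not tested. The 8 muscle fibre markers summed to 79505 to 111970 CPM in D51 and 120833 to 123873 CPM in WT, with 0 of 8 called. The 8 macrophage markers summed to 525 to 1192 CPM in D51 and 69.9 to 143 CPM in WT, with 8 of 8 called higher. Satellite and myogenic cell markers summed to 79.7 to 133 CPM in D51 and 41.0 to 47.5 CPM in WT, with 2 of 5 called higher. Fibro-adipogenic progenitor markers had 3 of 5 called higher, and endothelial, Schwann cell and smooth muscle markers had 3 of 5, 3 of 4 and 2 of 4 called lower. Of the 4 neutrophil and 4 lymphocyte markers 1 each passed the filter, and both were called higher. Csf3r, the neutrophil one, had 3.81, 8.09 and 2.28 CPM in D51 4, 5 and 6, against 0.387, 0.110 and 0.358 CPM in WT 1, 2 and 3, and Cd3e, the T cell one, had 21, 18 and 24 counts in D51 4, 5 and 6, against 3, 5 and 8 counts in WT 1, 2 and 3. The neutrophil marker Ly6g was at 0 counts in every library, and Cd3g had 2 to 3 counts in D51 libraries and 0 in WT libraries. Immediate early genes can be expressed by any of these cells, so a bulk level does not say which cell made the RNA, and more expressing cells cannot be told apart from more RNA per cell. The part of these cell types in the values below was not tested.

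Of the 10 factors, 6 were called higher in D51 muscle at an adjusted p under 0.05 (Atf3, Egr1, Junb, Fos, Myc and Fosl2), 0 were called lower and 4 were not called (Fosl1, Jund, Fosb and Jun). Over all genes tested, 16.1% were called higher and 11.9% lower, 28% in all (edgeR quasi-likelihood test with Benjamini-Hochberg adjustment). The median log2 fold change was 0.90 over the 10 factors and -0.01 over all genes tested. For the 6 called genes every D51 library lay above every WT library, which 23.8% of all genes tested also showed (in 45.5% the groups did not overlap in either direction). These calls depend on 1 wild-type library: without WT 2, only Atf3 of the 10 was still called, while the log2 fold changes of the other 5 were all at least 0.63. Calls over all genes also fell without WT 2, from 2309 to 1346 higher and from 1701 to 663 lower. Without D51 4, 5 factors were called, beside 1688 genes higher in all, and without D51 6, 7 were, beside 2662. With both WT 1 and D51 4 left out, a setting chosen after seeing the data, 4 were, beside 1440.

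**Figure D1:**
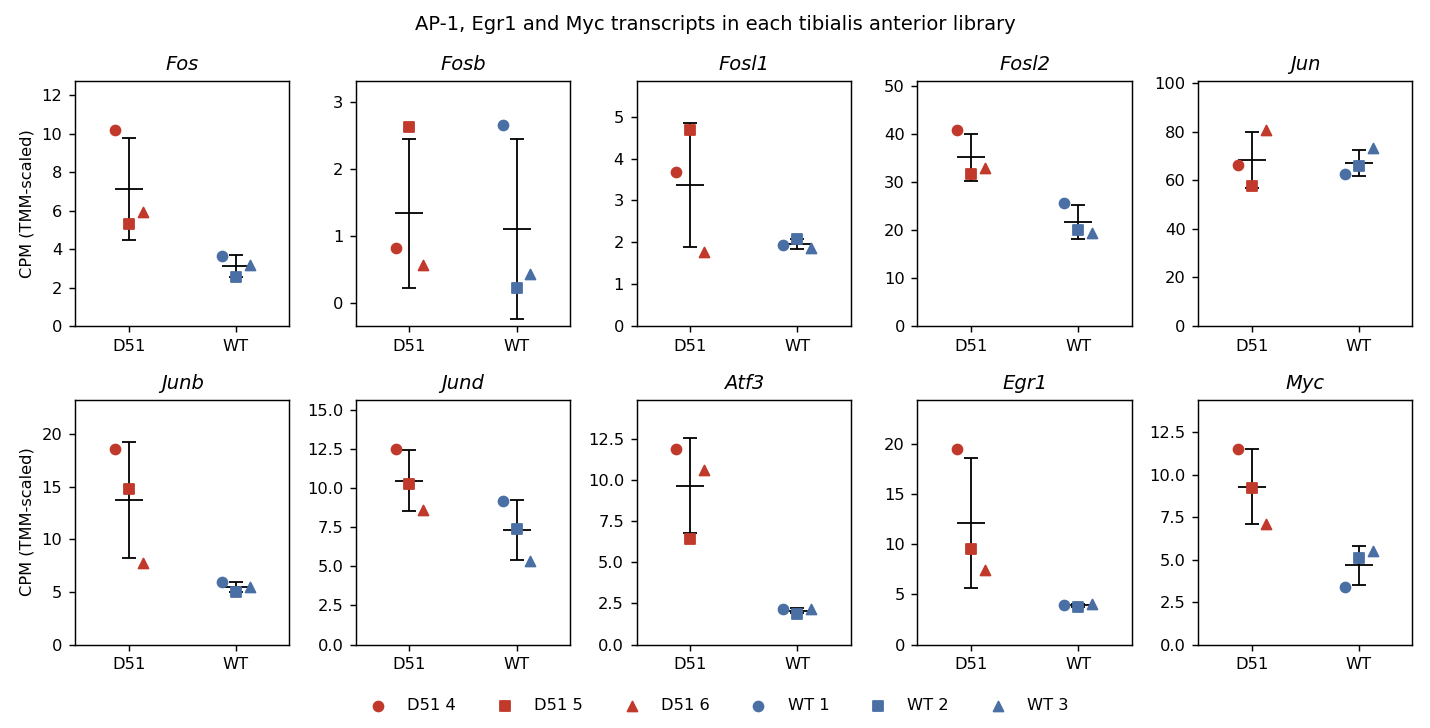
Level of each of the 10 factors in every library, in TMM-scaled CPM on a linear axis of its own per gene, with D51 libraries on the left and WT libraries on the right of each panel; points are libraries, and the bar with its error bar is the mean ± SD of 3 libraries. The groups do not overlap for Atf3, Egr1, Junb, Fos, Myc and Fosl2, and they overlap for Fosl1, Jund, Fosb and Jun.

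The promoters of 4 factors are shown first, because these genes span the range of responses in D51 muscle: Atf3 had the largest fold change, Fos and Junb were called higher, and Jun was not called. The RefSeq promoter table (build GRCm38.p6) holds an entry for 7 of the 10 genes, and none for Fosl1, Egr1 or Myc. Each sequence is the 250 bases before the RefSeq transcription start, written 5′ to 3′ on the strand of the gene. The Atf3 window is chr1:191183334-191183583 on the minus strand, and its last 7 bases are annotated as exon in GENCODE M21. It lies inside the Atf3 gene of that annotation (191170296 to 191218039), whose own start is further upstream and is not shown. The Fos window is chr12:85473640-85473889 on the plus strand. The Junb window is chr8:84978749-84978998 and the Jun window chr4:95052223-95052472, both on the minus strand. Capitals mark the cyclic AMP response element (CRE) core TGACGT or its reverse complement, the CRE variant TGACATCA, the C/EBP-ATF element TTGCATCA, the Mef2 site, the TATA box TATAAA and the CCAAT box.
Atf3: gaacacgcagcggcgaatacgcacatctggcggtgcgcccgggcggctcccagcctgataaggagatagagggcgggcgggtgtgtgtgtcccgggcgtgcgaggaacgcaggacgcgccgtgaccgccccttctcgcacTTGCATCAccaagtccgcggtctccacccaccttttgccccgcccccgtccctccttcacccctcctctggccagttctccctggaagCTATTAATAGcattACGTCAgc
Fos: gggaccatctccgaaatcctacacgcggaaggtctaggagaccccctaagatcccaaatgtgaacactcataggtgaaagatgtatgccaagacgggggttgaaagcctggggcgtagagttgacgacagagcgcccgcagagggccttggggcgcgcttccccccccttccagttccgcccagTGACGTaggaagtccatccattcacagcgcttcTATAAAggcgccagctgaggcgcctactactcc
Junb: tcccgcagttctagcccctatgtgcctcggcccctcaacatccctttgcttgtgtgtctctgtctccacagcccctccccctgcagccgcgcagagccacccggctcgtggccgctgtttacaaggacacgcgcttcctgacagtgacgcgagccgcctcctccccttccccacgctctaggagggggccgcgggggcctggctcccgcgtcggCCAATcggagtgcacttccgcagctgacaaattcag
Jun: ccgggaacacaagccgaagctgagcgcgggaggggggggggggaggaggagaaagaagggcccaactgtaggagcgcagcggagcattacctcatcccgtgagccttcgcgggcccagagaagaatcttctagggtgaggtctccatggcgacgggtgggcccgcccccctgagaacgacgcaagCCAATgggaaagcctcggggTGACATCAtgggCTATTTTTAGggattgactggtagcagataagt

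The CRE core, the motif bound by CREB and ATF proteins, was present in the Atf3 and Fos windows, 3 to 8 and 61 to 66 bases before the start. The Atf3 match lies mostly within the 7 bases annotated as exon, so it may lie partly within the transcript. The CRE core was found in 2 of the 7 windows held and in 6.51% of 32526 mouse promoter windows of the same length, searched on both strands. The variant TGACATCA, at which Jun and ATF proteins are known to bind the Jun gene, lay 38 to 45 bases before the start of Jun and occurs in 2.84% of windows. A Mef2 site, the motif of the myocyte enhancer factors, was found in the Atf3 and Jun windows and occurs in 0.513% of windows, and the C/EBP-ATF element of Atf3 occurs in 0.762%. A TATA box was found in the Fos window (12.3% of all windows) and a CCAAT box in the Junb and Jun windows (33.8%). The GC box GGGCGG, which is not capitalised, was found in 5 of the 7 windows and in 10726 of the 32526. One of the 5 is the window of Fosl2, all 250 bases of which are annotated as Fosl2 exon in GENCODE M21, so that match may lie within the transcript. The Jund window lies before the RefSeq start at 70697739, which is upstream of the GENCODE M21 start at 70698949. The AP-1 site TGANTCA (6.73% of all windows), the E-box CACGTG (6.04%) and the CArG box, the motif of the serum response factor (1.48%), were found in 0 of the 7. These are letter matches in a short window, and no binding was measured. A CRE-type element was found in the windows of Atf3 and Fos, both called higher, and in that of Jun, which was not called.

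**Figure D2:**
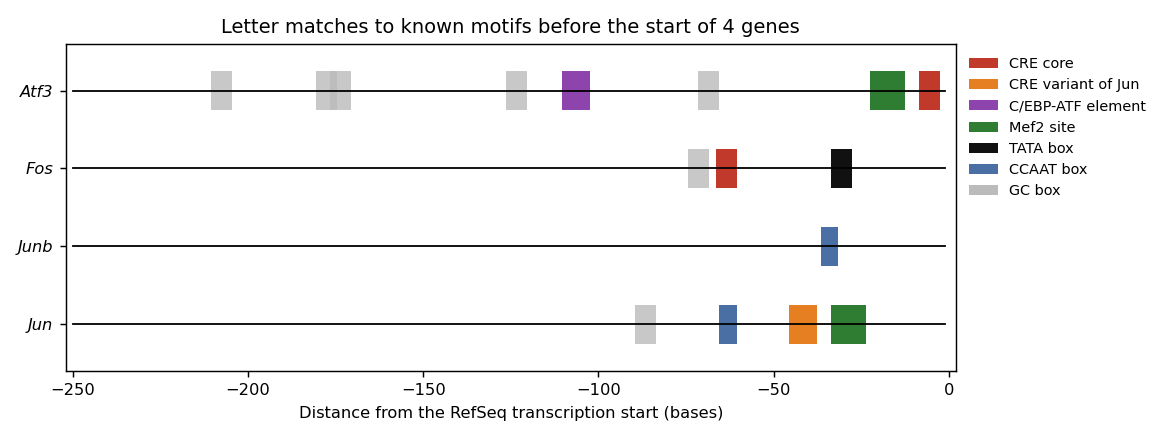
Map of the motif matches in the 4 promoters shown, as distance in bases from the RefSeq transcription start on the x axis, with 1 row per gene; each coloured block is a match on either strand. Atf3 and Fos carry the CRE core, Jun the TGACATCA variant, and Junb has a CCAAT box as its only match.

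Atf3 (chromosome 1, 191170296 to 191218039, minus strand) encodes a bZIP protein of the ATF and CREB family that is induced by many forms of cell stress and injury. It had 279, 147 and 205 counts in D51 4, 5 and 6, against 39, 34 and 30 counts in WT 1, 2 and 3. On the CPM scale these are 11.9, 6.43 and 10.6 in D51 and 2.16, 1.86 and 2.15 in WT, so the lowest D51 library was about 3-fold above the mean of WT (3.13-fold). The group means were 9.67 ± 2.88 CPM in D51 and 2.06 ± 0.168 CPM in WT (SD, n = 3 each). Atf3 thus differed by 2.23 on the log2 scale, with an SE of 0.258 and a 95% interval from 1.64 to 2.83 (edgeR, adjusted p = 0.00128). This was the largest change among the 10 factors, and the call held in all 19 alternative settings, with values between 1.67 and 2.57.

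Egr1 (chromosome 18, 34859823 to 34864984, plus strand) encodes a zinc-finger factor induced by mitogens, mechanical load and injury. It had 457, 217 and 143 counts in D51 4, 5 and 6, and 72, 68 and 56 in WT 1, 2 and 3. The scaled levels were 19.6, 9.49 and 7.43 CPM in D51 and 3.98, 3.73 and 4.01 CPM in WT. The wild-type libraries lay within a narrow band and the D51 libraries did not: the coefficient of variation was 53.4% in D51 and 4.03% in WT, with D51 4 highest. Fitted by edgeR, the log2 fold change of Egr1 was 1.64 with a 95% interval from 0.84 to 2.45 (SE 0.350), and the adjusted p was 0.0116. It was 1.12 without D51 4, still called, and the call ended without WT 2, where the adjusted p by edgeR was 0.0507 with little change in size.

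Myc (chromosome 15, 61985391 to 61990374, plus strand) encodes a factor that drives ribosome production, metabolism and cell cycle entry. Its counts were 270, 211 and 137 in D51 4, 5 and 6, and 61, 93 and 77 in WT 1, 2 and 3. These correspond to 11.6, 9.23 and 7.11 CPM in D51 and 3.38, 5.10 and 5.51 CPM in WT, with D51 6 nearest to WT. The mean was 9.30 ± 2.22 CPM in D51 and 4.66 ± 1.13 CPM in WT (SD, n = 3 each). On the log2 scale Myc differed by 1.01 ± 0.239 (SE; 95% interval 0.46 to 1.55), with an adjusted p of 0.0173 by edgeR. The call ended without D51 4 (0.82, adjusted p = 0.0565 by edgeR), without WT 2 (1.07, 0.0521) and with WT 1 and D51 4 both left out (0.63, 0.0895).

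Among the Fos genes, Fos and Fosl2 rose while Fosl1 and Fosb did not pass the test. Fos (chromosome 12, 85473890 to 85477273, plus strand) encodes the prototype Fos protein and had 238, 121 and 114 counts in D51 4, 5 and 6, and 66, 46 and 44 in WT 1, 2 and 3. On the CPM scale it had 10.2, 5.29 and 5.92 in D51 and 3.65, 2.52 and 3.15 in WT. D51 4 stood well above the other D51 libraries, which were still above all WT libraries. Fos thus differed by 1.20 on the log2 scale, with an SE of 0.285 and a 95% interval from 0.54 to 1.86 (edgeR, adjusted p = 0.0171). The call ended without WT 2 (1.06, adjusted p = 0.0734 by edgeR) and without WT 3 (1.20, 0.0514), and the value was 0.85 without D51 4, still called.

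Fosl2 (chromosome 5, 32135801 to 32157842, plus strand) encodes Fra-2, a Fos protein without the strong activation domain of Fos. It had 954, 723 and 633 counts in D51 4, 5 and 6, and 463, 364 and 270 in WT 1, 2 and 3. The levels were 40.8, 31.6 and 32.9 CPM in D51 and 25.6, 19.9 and 19.3 CPM in WT, and the spread within the groups was similar, with a coefficient of variation of 14.2% in D51 and 16.01% in WT. Its log2 fold change of 0.70 was the smallest of the 6 called (95% interval 0.36 to 1.03, SE 0.146, adjusted p = 0.0107 by edgeR). Without WT 2 it was 0.63 with an adjusted p of 0.0535 by edgeR.

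Fosl1 (chromosome 19, 5447547 to 5455946, plus strand) encodes Fra-1, the closest relative of Fra-2. It had 86, 107 and 34 counts in D51 4, 5 and 6, and 35, 38 and 26 in WT 1, 2 and 3, or 3.68, 4.68 and 1.77 CPM in D51 and 1.94, 2.08 and 1.86 CPM in WT. D51 4 and D51 5 were above every WT library and D51 6 was below every one. Fitted by edgeR, the log2 fold change of Fosl1 was 0.79 with a 95% interval from 0.0009 to 1.58 (SE 0.342). The interval starts almost at no change and ends at a rise of about 3-fold. With an adjusted p of 0.121 by edgeR the gene was not called. Without D51 6 it was 1.08 and called (edgeR adjusted p = 0.00775), and without D51 5 it was 0.49. Its exons share 1163 bases with Ccdc85b on the opposite strand, which was not called (-0.33). Since no source used here states whether counting used strand, reads of the 2 genes may not be separable.

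Fosb (chromosome 7, 19302696 to 19310051, minus strand), whose shortened isoform ΔFosB is known as a long-lived activity marker in neurons, was close to the detection limit. It had 19, 60 and 11 counts in D51 4, 5 and 6, and 48, 4 and 6 in WT 1, 2 and 3. Each group held 1 high library, D51 5 and WT 1, at 2.62 and 2.66 CPM, and the others lay between 0.219 and 0.813 CPM. On the log2 scale Fosb differed by 0.26 ± 0.860 (SE; 95% interval -1.72 to 2.24), with an adjusted p of 0.848 by edgeR. It was -0.67 without D51 5 and 2.08 without WT 1, so no direction could be read at this depth.

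Among the Jun genes Junb rose, while Jun and Jund were not called. Junb (chromosome 8, 84974484 to 84978718, minus strand) encodes a Jun protein with weaker transactivation than Jun, known in muscle from mouse work for maintaining fibre size. Its counts were 436, 338 and 150 in D51 4, 5 and 6, and 107, 91 and 77 in WT 1, 2 and 3. The scaled levels were 18.7, 14.8 and 7.79 CPM in D51 and 5.92, 4.99 and 5.51 CPM in WT, and D51 6 lay much nearer to WT than the other D51 libraries. Junb thus differed by 1.33 on the log2 scale, with an SE of 0.294 and a 95% interval from 0.66 to 2.01 (edgeR, adjusted p = 0.0131). The call ended without WT 2 (1.26, adjusted p = 0.0575 by edgeR) and with WT 1 and D51 4 both left out (1.11, 0.0571). A stretch of 173 exon bases is shared with Prdx2 on the opposite strand. Prdx2 was not called (log2 fold change -0.00022, edgeR adjusted p = 0.999).

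Jun (chromosome 4, 95049034 to 95052222, minus strand) encodes c-Jun, the main Jun partner of the Fos proteins. It had 1554, 1322 and 1556 counts in D51 4, 5 and 6, and 1131, 1201 and 1022 in WT 1, 2 and 3, the counts of the groups not overlapping before scaling. Scaled to 66.5, 57.8 and 80.8 CPM in D51 and 62.6, 65.8 and 73.2 CPM in WT, the lowest and the highest library were both D51. Fitted by edgeR, the log2 fold change of Jun was 0.03 with a 95% interval from -0.28 to 0.33 (SE 0.132), and the adjusted p was 0.904, an interval that leaves out a rise as large as the estimate for Fosl2. With scaling to library size alone, which moved the median of all genes to 0.34, Jun was at 0.37 and called (edgeR adjusted p = 0.0269), close to that median. Without D51 6 it was -0.11. Its antisense neighbour Junos, which shares 232 exon bases, had 123, 82 and 125 counts in D51 4, 5 and 6, against 195, 185 and 113 in WT 1, 2 and 3, and was called lower (-0.93, edgeR adjusted p = 0.0183). Reads of Jun and Junos may not be separable for the reason given for Fosl1.

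Jund (chromosome 8, 70698949 to 70700616, plus strand) encodes the most constitutively expressed Jun protein. It had 293, 235 and 166 counts in D51 4, 5 and 6, and 166, 135 and 75 in WT 1, 2 and 3, or 12.5, 10.3 and 8.62 CPM in D51 and 9.19, 7.40 and 5.37 CPM in WT. Only D51 6 overlapped the WT range, by lying below WT 1. On the log2 scale Jund differed by 0.51 ± 0.216 (SE; 95% interval 0.01 to 1.01), with an adjusted p of 0.113 by edgeR. In the authors' deposited table, from a likelihood-ratio test, it has a log2 fold change of 0.48 and an adjusted p of 0.0270. That table calls 7 of the 10 factors, the 6 called here and Jund. The share of all genes that it calls was not computed, so the 7 are given without a background and are not read as a result about the factors. Jund was also called with no filter (0.53) and with scaling to library size alone (0.87). An antisense gene, Gm11175, shares 877 exon bases and had 0 counts in every library.

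**Figure D3:**
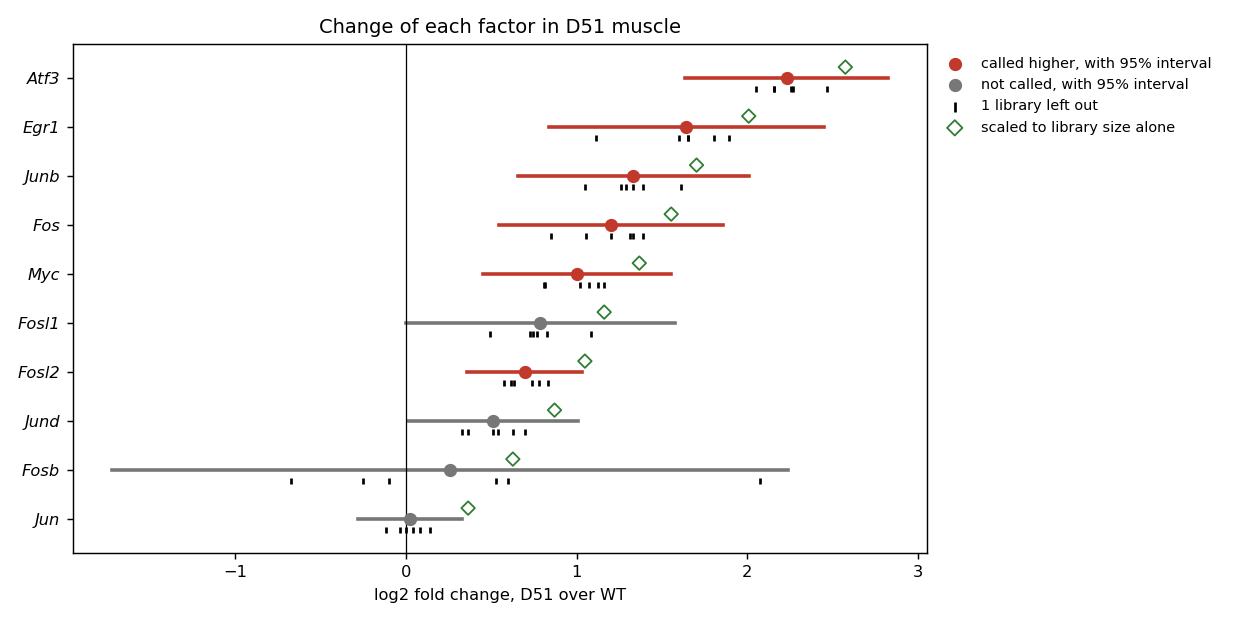
Log2 fold change, D51 over WT, of each factor on the x axis, with the edgeR estimate and its 95% interval (red where called higher, grey where not called), the values with 1 library left out (ticks) and the value with scaling to library size alone (diamonds). The estimates run from 2.23 for Atf3 to 0.03 for Jun, and the ticks of Fosb lie on both sides of 0.

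Per kilobase of gene length, Jun had the highest level of the 10 factors in both groups, at 21.4 ± 3.64 CPM per kilobase in D51 and 21.1 ± 1.71 in WT (SD, n = 3 each). In D51, Jund (6.28 ± 1.18) and Junb (5.97 ± 2.39) followed, then Atf3 (4.49 ± 1.34), Fosl2 (3.63 ± 0.515), Myc (3.42 ± 0.817), Fos (3.03 ± 1.13), Egr1 (2.71 ± 1.45), Fosl1 (1.98 ± 0.868) and Fosb (0.214 ± 0.180). From Jund down to Fosl1, each neighbouring pair in this order differed by less than the SD of the higher gene, while Jun and Jund, and Fosl1 and Fosb, differed by more. In WT, Jund (4.39 ± 1.14) was followed by Junb (2.38 ± 0.204), Fosl2 (2.24 ± 0.358), Myc (1.72 ± 0.417), Fos (1.32 ± 0.241), Fosl1 (1.15 ± 0.0655), Atf3 (0.955 ± 0.0779), Egr1 (0.871 ± 0.0351) and Fosb (0.176 ± 0.216). There, Junb and Fosl2, Myc and Fos, and Fos and Fosl1 differed by less than the SD of the higher gene. Atf3 was thus in the eighth place of the order in WT and in the fourth in D51. Set against all genes tested, the level per kilobase of Atf3 lay at percentile 62.4 in D51 and 28.3 in WT, that of Egr1 at 48.9 and 26.8, and that of Jun at 90.7 and 90.0.

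The 7 Fos and Jun genes together gave a summed level per kilobase of 47.3, 39.4 and 40.9 in D51 4, 5 and 6, against 33.5, 31.6 and 33.1 in WT 1, 2 and 3. Jun took 44.1%, 46.0% and 61.9% of that sum in D51 and 58.6%, 65.3% and 69.4% in WT. The share of Jun averaged 50.7 ± 9.78% in D51 and 64.4 ± 5.43% in WT (SD, n = 3 each), a difference of -13.8 percentage points, and the groups overlapped because D51 6 lay above WT 1. The share of Junb was 17.1%, 16.3% and 8.27% in D51 and 7.69%, 6.85% and 7.25% in WT, without overlap. The share of Fos was 9.15%, 5.71% and 6.15% in D51 and 4.64%, 3.39% and 4.05% in WT, also without overlap. A share of transcripts gives no measure of how much of each protein or dimer was present.

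**Figure D4:**
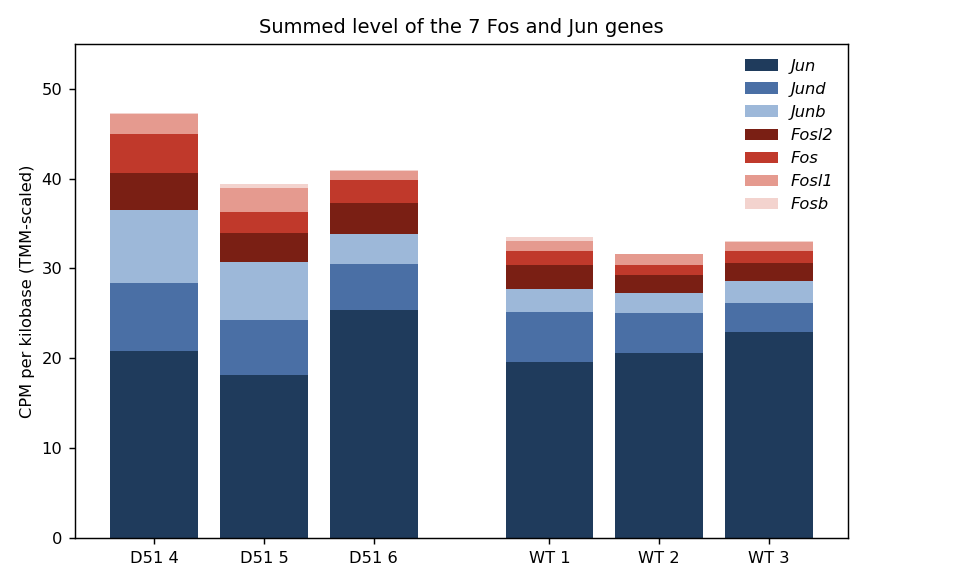
Composition of the summed level per kilobase of the 7 Fos and Jun genes in each library, as stacked bars in CPM per kilobase on a linear axis from 0, with D51 libraries left of WT libraries. The Jun segment is 18.1 to 25.3 high in D51 and 19.6 to 23.0 in WT, and the sums are 39.4 to 47.3 in D51 and 31.6 to 33.5 in WT.

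A ratio of 2 counts within a library needs no scaling between libraries. Taken against the count of Jun, chosen as the denominator after its values were seen, Atf3 reached 18.0%, 11.1% and 13.2% in D51 4, 5 and 6, and 3.45%, 2.83% and 2.94% in WT 1, 2 and 3. Egr1 reached 29.4%, 16.4% and 9.19% in D51 and 6.37%, 5.66% and 5.48% in WT. The ratios of Fos, Junb and Myc did not overlap between the groups either. The share of all genes whose ratio to Jun does not overlap was not computed, and in CPM 45.5% of all genes tested did not overlap. For these 5 ratios the exact two-sided permutation test gave p = 0.1, the smallest that 3 against 3 libraries allow. The ratio of Fosl2 overlapped narrowly, with 61.4%, 54.7% and 40.7% in D51 and 40.9%, 30.3% and 26.4% in WT (exact permutation p = 0.2). Those of Jund, Fosl1 and Fosb gave exact permutation p-values of 0.3, 0.4 and 0.5. Of the 9 ratios compared, none could pass a threshold of 0.05 in this design.

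The D51 libraries differed among themselves, and what the 6 called factors shared was the highest library. D51 4 was highest for all 6, with a median of 3.34-fold over the WT mean, against 2.20-fold in D51 5 and 1.71-fold in D51 6. The lowest library was D51 5 for 3 of them and D51 6 for the other 3. The share of all genes with D51 4 as the highest D51 library was not computed. Macrophage markers summed to 752, 1192 and 525 CPM in D51 4, 5 and 6. Satellite and myogenic cell markers summed to 102, 133 and 79.7 CPM there, and fibro-adipogenic progenitor markers to 821, 749 and 966 CPM. The part of these cell types in the order of the libraries was not tested. Within groups, taking each library's deviation from its group mean of log2 CPM over the 6 libraries, the profile of Fos was most like those of Fosl2 (Pearson r = 0.85) and Egr1 (0.84) among the factors, that of Junb most like Egr1 (0.85) and Fosl1 (0.84), and Fosl1 ran opposite to Jun (-0.91). Among the 9700 genes of at least 5 mean CPM, the 5 with the profile most like Fos were Zfp952 (0.996), Cpne8 (0.995), Clip2 (0.993), Tmem263 (0.992) and Fkbp14 (0.992), and none of these was called between D51 and WT. Other pairs of called factors had little likeness, such as Atf3 with Junb (-0.04), Atf3 with Myc (0.02) and Fosl2 with Myc (-0.20). With 6 libraries, 51 genes had r above 0.95 with Fos, so these likenesses are descriptions only.

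The other genes of these pathways were taken as 7 lists with 106 genes. Other immediate early genes had 5 of 24 tested called higher (20.8%, beside the 16.1% of all genes) and 0 lower, with a median log2 fold change of 0.24. Nr4a3, an orphan nuclear receptor gene induced by exercise, had 33.5, 6.69 and 11.6 CPM in D51 4, 5 and 6, against 4.09, 3.62 and 3.94 CPM in WT 1, 2 and 3 (2.15, SE 0.552, edgeR adjusted p = 0.0229), and D51 4 was again the highest. Without D51 4 its log2 fold change was 1.23, still called, and its call ended without WT 1, WT 2 or WT 3 (adjusted p = 0.0586, 0.0832 and 0.0694 by edgeR) and with limma-voom (1.83, 0.0897). Socs3, the feedback inhibitor of cytokine signalling, rose by 1.54 on the log2 scale, with 10.8, 6.65 and 5.09 CPM in D51 and 3.71, 2.19 and 1.79 CPM in WT. The matricellular gene Ctgf rose by 0.68 and the polo-like kinase gene Plk2 by 0.61, and the fifth called gene, Csrnp1, rose by 0.80. The Socs3 call ended without WT 2 or WT 3, the Ctgf call without WT 2, and the Plk2 call when any library other than D51 6 was left out. Nr4a1, a close relative of Nr4a3 that is also induced by exercise, had 153, 89.6 and 167 CPM in D51 and 174, 95.3 and 126 CPM in WT and was not called (0.05, edgeR adjusted p = 0.906). With 1 library left out 0 to 4 genes of the list were called, 0 without WT 2 and 2 without WT 1, and 10 were called with scaling to library size alone.

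Of 15 bZIP partners of AP-1 tested, 1 was called higher and 3 lower, with a median log2 fold change of -0.08, near the shares of all genes tested (28% called in either direction). Jdp2, a repressor that pairs with Jun, rose by 0.86 (SE 0.207, edgeR adjusted p = 0.0177). Atf5 fell by 0.61, and Atf2 and Atf7, partners of Jun at CRE sites, fell by 0.26 and 0.27. Under scaling to library size alone Atf2 and Atf7 were at 0.086 and 0.080 and not called. The Jdp2 call ended when any library other than D51 6 was left out (0.69 to 0.92), and the 3 lower calls were 0 without WT 2 and 1 without D51 4, D51 5, WT 1 or WT 3. Among MAP kinases, Srf and Elk factors, which relay stimuli to these promoters, 0 of 17 were called higher and 3 lower, beside 16.1% higher and 11.9% lower over all genes, with a median of -0.19. Map2k7, an upstream kinase of JNK, fell by 0.52, the JNK gene Mapk9 by 0.46 and the ERK kinase gene Map2k2 by 0.36. The Map2k2 call ended without D51 4, D51 5, WT 1 or WT 2 and the Map2k7 call without WT 2, leaving 2 lower calls in each case. With WT 1 and D51 4 both left out there were 0, without WT 3 there were 4 and without D51 6 there were 7. None of these 3 was called under scaling to library size alone, where their values were -0.18, -0.12 and -0.01.

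Of 4 Egr relatives and Nab genes tested 1 was called, a share near the 28% of all genes. Nab2, a corepressor that binds Egr proteins and is itself an Egr target, was called higher, with 6.37, 4.33 and 3.22 CPM in D51 4, 5 and 6, against 2.99, 1.21 and 1.00 CPM in WT 1, 2 and 3 (1.40, edgeR adjusted p = 0.0413). The median of this list was 0.83, and Egr4 had 0 counts in every library. The Nab2 call ended when any of D51 4, D51 5, WT 2 or WT 3 was left out, with log2 fold changes of 1.10 to 1.47. In the Myc network 1 of 9 tested was called higher and 2 lower, also near the 28% of all genes. Mycl, a second Myc family gene, rose by 2.36 (SE 0.517, edgeR adjusted p = 0.0128) on 35, 54 and 36 counts in D51 and 5, 2 and 11 counts in WT. The Max partner Mxi1, an antagonist of Myc, fell by 0.54 (edgeR adjusted p = 0.00329) and Mlxip, which senses glucose metabolites, by 0.36. Scaling to library size alone left Mxi1 at -0.19 and Mlxip at -0.01, neither of them called. The lower calls of this list were 3 without D51 6 and 1 with any other library left out.

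Of 13 AP-1 target genes tested, 10 were called higher (76.9%, beside the 16.1% of all genes) and 0 lower, with a median log2 fold change of 2.21 against -0.01 over all genes. Mmp3, which encodes the matrix protease stromelysin-1, had 7.49, 5.95 and 8.83 CPM in D51 4, 5 and 6, against 0.498, 0.219 and 1.00 CPM in WT 1, 2 and 3 (3.75, SE 0.393, edgeR adjusted p = 0.000938). The hyaluronan receptor gene Cd44 rose by 2.42, the intermediate filament gene Vim by 1.81 and the urokinase gene Plau by 0.77. The 3 not called were Ccnd1, Mmp9 and Mmp13 (1.34, 2.32 and 0.01, edgeR adjusted p = 0.0967, 0.167 and 0.996). Mmp9 was high in D51 6 alone, with 344 counts, and Mmp13 was highest in WT 3, with 183 counts. The list was chosen with earlier results of these data known. With 1 library left out, 10 to 12 genes of this list were called. Many of these genes are abundant in macrophages and fibroblasts. Of the markers given above, 8 of 8 for macrophages and 3 of 5 for fibro-adipogenic progenitors were called higher in D51. The part of these cell types in this count was not tested. Of 15 Myc target genes, 4 were called higher (26.7%) and 0 lower, with a median of 0.27. The nucleolar genes Nop58 and Npm1 rose by 0.65 and 0.57, the cyclin-dependent kinase gene Cdk4 by 0.56 and the polyamine enzyme gene Odc1 by 0.27. With any library other than D51 6 left out 0 of the list were called, and 5 were without D51 6.

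**Figure D5:**
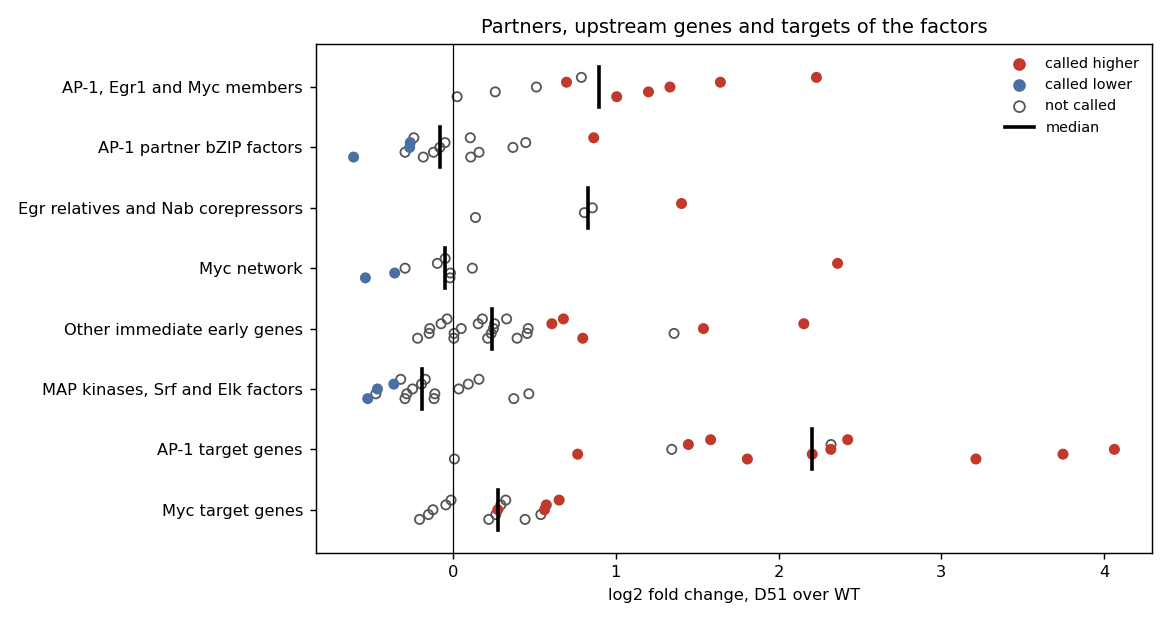
Log2 fold change, D51 over WT, of every tested gene of the 10 factors and of the 7 other lists, 1 row per list, with filled points for called genes (red higher, blue lower), open points for the rest and a line at each list's median. The AP-1 target genes have the highest median (2.21), the 10 factors a median of 0.90, and the MAP kinases, Srf and Elk factors the lowest (-0.19).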

How the data were processed

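The authors deposited gene lengths with raw counts of reads, RPKM values, and a comparison table holding log2 fold changes and log2 average abundance, a likelihood-ratio score, p-values, and the same p-values as −log10, per the file headers. The submitters' processing notes list featureCounts 1.6.0, FastQC 0.11.4, edgeR 3.30.1 and the build GRCm38 (mm10). The aligner, annotation release and strand setting were not given in the sources used here.

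Deposited counts were tested in R 4.3.3 with edgeR 4.0.16 (quasi-likelihood, two-sided, TMM scaling, default filter). Genes with a Benjamini-Hochberg adjusted p under 0.05 over the 14335 tested were called. The common coefficient of biological variation was 0.155, and TMM factors were 1.04 to 1.19 in D51 and 0.869 to 0.898 in WT. SEs were back-calculated from the F statistic, and intervals are 95%. Labels call the libraries biological replicates, and p-values set the difference between the groups against the spread between these samples. Chi-square values per degree of freedom between libraries of a group were 8.08 to 42.9, above sampling noise. Coordinates come from GENCODE M21, and promoter sequences from RefSeq (GRCm38.p6).

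The members and lists were chosen with earlier results of these data known. Named genes are the members, Dmd, up to 4 called genes per list with the smallest adjusted p, and the 5 genes most like Fos. Up to 2 uncalled genes per list of the highest level were also picked, of which only Nr4a1, Ccnd1 and Mmp13 are given. Csrnp1, Mmp9, Ccdc85b, Junos, Prdx2, Gm11175, Egr4, Csf3r, Cd3e, Cd3g and Ly6g were named after their values were seen. Alternatives were library size alone, DESeq2 1.42.0 and its size factors, other filters, TMM with the 20 most abundant genes left out, limma-voom and limma-trend on log2 RPKM (limma 3.58.1, pseudocount 0.1 or 1), robust dispersion, a replicate block and each library left out. The likelihood-ratio test, the joint removal of WT 1 and D51 4 and the ratios to Jun were added after seeing the data. The test was tried on simulated counts before use.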

Additional observations from a re-analysis of the deposited data

How the results depend on the processing

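Directions of the 6 called factors held in all 19 alternatives, and Atf3 also kept its call in all of them. With 1 library left out, 1 to 7 factors were called higher, with 1 when WT 2 was missing, and the log2 fold changes ran from 2.05 to 2.47 for Atf3, 1.12 to 1.89 for Egr1, 1.05 to 1.61 for Junb, 0.85 to 1.39 for Fos, 0.81 to 1.16 for Myc, 0.57 to 0.83 for Fosl2, 0.49 to 1.08 for Fosl1, 0.33 to 0.70 for Jund, -0.67 to 2.08 for Fosb and -0.11 to 0.14 for Jun, and the share of Jun differed by -19.4 to -10.5 points. The genes called ran from 1346 to 2662 higher and 663 to 2157 lower, and those of the 7 lists from 11 to 26 higher and 3 to 13 lower. With WT 1 and D51 4 both left out, the counts were 1440 higher and 686 lower, 4 factors, and 13 list genes higher and 1 lower. Junb (1.11) and Myc (0.63) then lost their calls and Jun was at -0.0051.

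Scaling to library size alone and limma-trend on RPKM (pseudocounts 0.1 and 1) moved the median of all genes to 0.34, 0.32 and 0.21. They gave 5394, 5222 and 5071 genes higher and 334, 309 and 308 lower, 9, 8 and 8 factors called, 43, 40 and 39 list genes higher and 0 lower in each. Jun was then called at 0.37, 0.36 and 0.35 and Jund at 0.87, 0.86 and 0.73, and Fosl1 was called at 1.16 with library size alone. Atf2 turned to 0.0862, 0.0837 and 0.0688, Atf7 to 0.0797, 0.0785 and 0.0684, and Zfp952 to 0.0875, 0.078 and 0.0548. With no filter Fosl1 (0.81) and Jund (0.53) were called, 8 factors in all, beside 2870 genes higher and 1772 lower. The share of all genes called in that setting was not computed. The median shift follows from the construction of these scalings. For the other changes the cause was not tested.

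Fosb turned to -0.67 without D51 5, -0.25 without WT 2 and -0.10 without WT 3, Jun to -0.11 without D51 6 and -0.03 without WT 1, and Nr4a1 to -0.04 without D51 4, -0.12 without D51 6 and -0.14 without WT 2 (highest 0.30, without WT 1). Clip2 turned to -0.0084 with WT 1 and D51 4 both left out and to -0.11 without D51 4 (highest 0.29, without D51 5), and Fkbp14 to -0.0007 without D51 4 (highest 0.46, without D51 5).

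Same-numbered libraries deviated together with r = 0.35, -0.01 and 0.06, and differently numbered ones with r from -0.22 to 0.15. The r of 0.35, for D51 4 with WT 1, was the highest of all pairs, so the replicate numbers gave no uniform pairing. Whether D51 4 and WT 1 shared a batch was not tested. A replicate block gave 2508 genes higher and 1960 lower, 26 list genes higher and 10 lower, and 7 factors, with Jund at 0.53 (edgeR adjusted p = 0.0201). Depth limits Fosb, with 4 to 60 counts per library, and Mycl, with 2 to 54.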
